A study of Homo sapiens with 18 samples.

Results

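SEC62, SYT4, BRI3BP, TNFRSF19, HERPUD2, AQP3 and FXYD3 are 7 genes whose RNA stood lower in cells given siRNA against the transcription factor KLF5 than in cells given control siRNA. They were picked from that very difference, with vehicle or with androgen, so their siKLF5 values are given below as a description without a test. They are 7 of the 34912 genes in the tables, and 50 of the 164776 transcripts listed belong to them. The siNFYA libraries had no part in the choice. The control libraries were the other side of the choosing contrasts. The tests of siNFYA against control and of R1881 in control libraries therefore share values with the choice. R1881 against vehicle in siNFYA libraries compares no library used in the choice, but its estimate of spread was shared with the control libraries.

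RNA-seq was made from LNCaP cells, a line of human prostate cancer cells grown from a lymph node metastasis that responds to androgen. Cells were transfected with pooled siRNAs against KLF5, against NFYA (the A subunit of NF-Y, which binds CCAAT boxes), or with pooled non-targeting siRNAs. All groups were kept for 48 h in medium with 5% charcoal-stripped serum, which removes steroids, and then received 10 nM R1881, a synthetic androgen, or 96% ethanol as vehicle for 24 h. The labels list 3 samples in each of the 6 groups, and 17 of the 18 were analysed here: siKLF5 with R1881 (3), siKLF5 with vehicle (2, replicates 2 and 3), siNFYA with R1881 (3), siNFYA with vehicle (3), control siRNA with R1881 (3) and control siRNA with vehicle (3). One line and 1 siRNA pool per target limit the groups as models.

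KLF5 belongs to the Krüppel-like zinc-finger family, whose members bind GC-rich and CACCC-type DNA and control growth and differentiation of epithelia, the prostate included. The genes described here are not a single pathway, but each encodes a membrane protein. SEC62 and HERPUD2 act at the endoplasmic reticulum (ER) in protein import and in disposal of misfolded proteins. SYT4 acts in vesicle traffic, BRI3BP is a membrane protein of ER and mitochondria, TNFRSF19 is a cell-surface receptor, and AQP3 and FXYD3 serve water, glycerol and ion transport.

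The libraries held 4416653 to 6872421 estimated counts. Every one of 10 luminal markers of the line averaged at least 1 CPM (counts scaled to library size). Their sum with R1881 was 15629 to 15840 CPM in siKLF5 libraries and 16755 to 17258 CPM in siNFYA libraries, against 16583 to 16894 CPM in control libraries. With vehicle it was 3972 to 3987 CPM in siKLF5 libraries and 3754 to 3857 CPM in siNFYA libraries, against 4119 to 4148 CPM in control libraries. The summed basal markers reached at most 0.468 CPM, with KRT5 at 0. Of 6 neuroendocrine and neuronal markers 1, SYP, averaged at least 1 CPM, with INSM1 at 0, and their sum was 1.08 to 3.70 CPM. The summed stromal markers (COL1A1 and COL3A1 above 1) with vehicle were 18.0 to 19.5 CPM in siKLF5 libraries and 10.0 to 15.8 CPM in siNFYA libraries, against 15.0 to 16.3 CPM in control libraries, and with R1881 they lay between 7.50 and 11.4 CPM in all groups. Blood and endothelial markers summed to between 2.65 and 9.63 CPM (VWF above 1, CD3E at 0). Mitochondrial RNA took 2.20 to 2.96% of counts in siKLF5 libraries and 2.54 to 3.00% in siNFYA libraries, against 1.33 to 2.07% in control libraries. Retained-intron transcripts took 2.28 to 2.68% in siKLF5 libraries and 2.56 to 3.05% in siNFYA libraries, against 1.96 to 2.23% in control libraries. Luminal sums (with siKLF5 in both treatments and with siNFYA and vehicle), stromal sums with siKLF5 and vehicle, and both RNA measures thus moved with the siRNA, and their part in the results below was not tested. Replicate 3 of siNFYA with vehicle stood apart: AC010970.1 took 2.85% of its counts, against at most 0.424% in any other library. Without it, siNFYA with vehicle gave log2 changes of -0.18 for SYT4 and -0.37 for TNFRSF19, both still called by edgeR, and no other call among the 7 genes under siNFYA with vehicle or R1881 against vehicle was lost. In bulk RNA, fewer cells that express a gene and less RNA per cell cannot be told apart.

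KLF5 itself was scarce without androgen. With R1881 it had 11.8, 11.4 and 15.2 CPM in siKLF5 libraries, against 27.9, 25.3 and 31.9 CPM in control libraries, a log2 change of -1.15 (SE 0.163, edgeR adjusted p = 0.000228). That call was lost on the TPM scale (-0.17, limma adjusted p = 0.942). There KLF5 had 5.44, 40.1 and 6.74 TPM in siKLF5 libraries, against 11.8, 13.1 and 14.3 TPM in control libraries. Replicate 2 of siKLF5 with R1881 thus stood far above replicates 1 and 3 in TPM, though their estimated counts were close (61, 59 and 65 in that order). With vehicle KLF5 had 7 and 22 estimated counts (0.932 and 3.03 CPM) in siKLF5 libraries, against 33, 30 and 22 (4.91, 4.30 and 3.26 CPM) in control libraries. The log2 change there was -1.08 (SE 0.346, edgeR adjusted p = 0.149). It was called when genes with low counts were kept (-1.09, adjusted p = 0.017). Leaving out replicate 3 of siKLF5 with vehicle gave -2.14 (adjusted p = 0.0254) and leaving out replicate 2 gave -0.46 (adjusted p = 0.551). In these fits, and in those of the members without either library, the lone siKLF5 library with vehicle is assumed to vary like the libraries of the other groups. Replicate 3 of siKLF5 with vehicle stood close to the lowest control library in KLF5, and the members' values without it are given below.

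NFYA had 58.7, 56.9 and 53.6 CPM in siNFYA libraries with R1881, against 84.5, 89.7 and 86.6 CPM in control libraries, a log2 change of -0.62 (SE 0.0615, edgeR adjusted p = 2.37e-07). With vehicle NFYA had 48.0, 44.0 and 46.7 CPM in siNFYA libraries, against 68.3, 71.2 and 73.3 CPM in control libraries (-0.62, SE 0.0631, adjusted p = 4.06e-07). The siNFYA libraries lay below all control libraries in both treatments.

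In TPM, a scale that corrects for transcript length, SYT4 was by far the most abundant of the 7, at 443 to 641 TPM over all libraries with a mean of 543. Its range touched that of no other member. With R1881, control libraries averaged 225 TPM for FXYD3, 121 for SEC62, 89.9 for TNFRSF19, 27.9 for HERPUD2, 19.8 for AQP3 and 15.9 for BRI3BP. With vehicle, control libraries averaged 95.3 TPM for SEC62, 74.9 for FXYD3, 36.0 for TNFRSF19, 30.5 for HERPUD2, 24.2 for BRI3BP and 19.4 for AQP3. FXYD3 and SEC62, and likewise BRI3BP and AQP3, thus changed places in the order of levels between the treatments. Over all libraries the ranges of neighbours below SYT4 overlapped, for example 50.2 to 230 TPM for FXYD3 beside 56.9 to 130 TPM for SEC62. The order also rests on counts assigned to short transcripts. In control libraries ENST00000603731 (505 nt) gave 12.8 TPM of HERPUD2 with R1881 and 17.5 with vehicle, on 13.8% of the gene's counts over all libraries. ENST00000604621 (548 nt) gave 149 TPM of FXYD3 with R1881. In CPM, BRI3BP stood above HERPUD2 in control libraries (73.0 against 24.7 with R1881, 99.2 against 23.2 with vehicle).

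**Figure D1:**
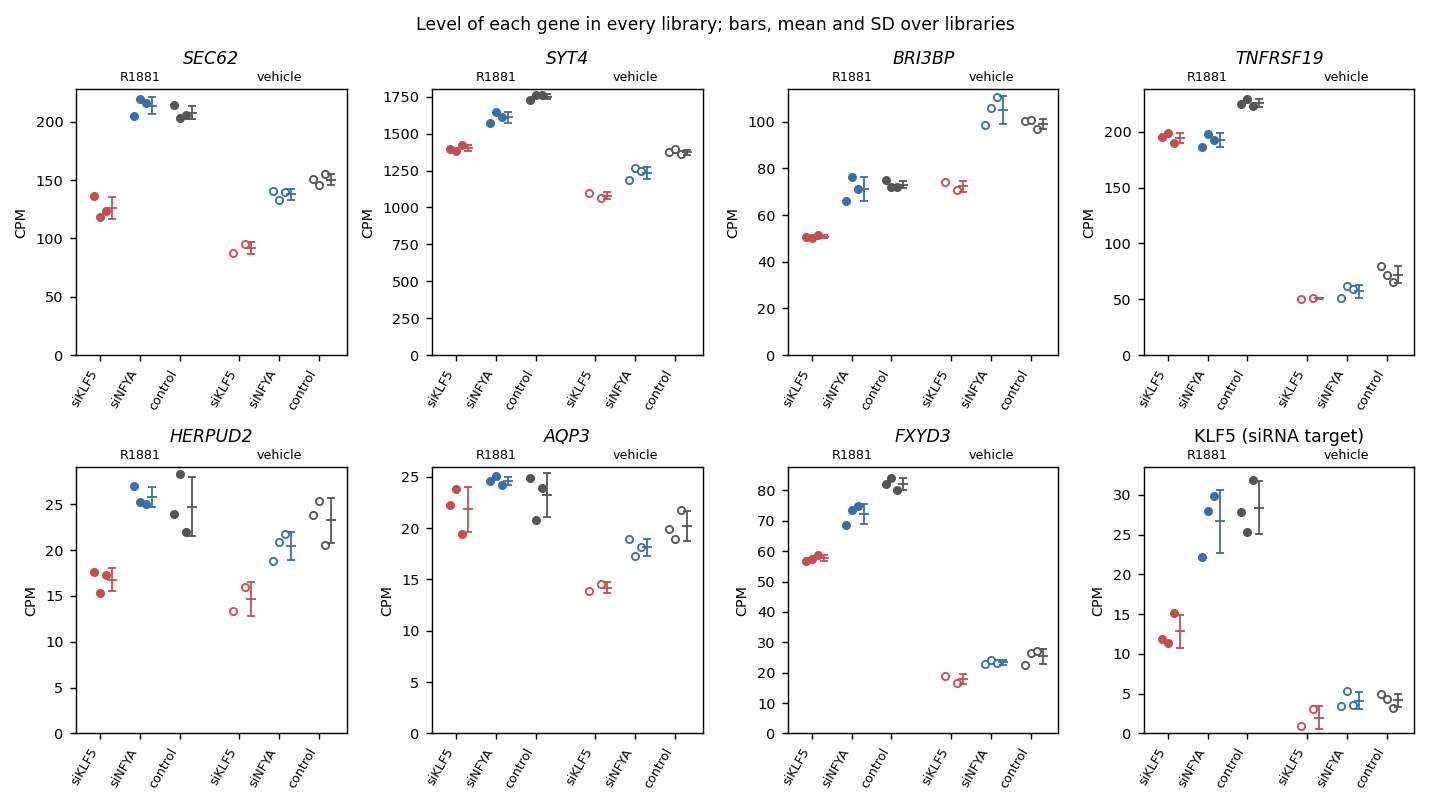
CPM of the 7 genes and of KLF5 in each of the 17 libraries, with 1 panel per gene and the siRNA and treatment groups along the horizontal axis; points are libraries and bars are group means with SD. Each siKLF5 library lies below all control libraries of its treatment for the 7 genes, except AQP3 with R1881, where siKLF5 (19.4 to 23.8 CPM) and control (20.8 to 24.9 CPM) overlap.

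With R1881 the members stood at 61.0 to 95.4% of their control level in siKLF5 libraries, with a median log2 change of -0.50 against 0.000236 over all genes fitted. In CPM all siKLF5 libraries lay below all control libraries for 6 of the 7 members, and AQP3 overlapped. Over all genes fitted this held for 11.1%, and 0.55% were called lower. With vehicle they stood at 60.7 to 78.3% of control, with a median log2 change of -0.51 against -0.01 over all genes. In CPM all 7 were lower in both siKLF5 libraries than in every control library, as were 13.3% of all genes, and 0.55% were called lower. Since these contrasts chose the members, nothing is read from the counts. The median with vehicle was -0.52 without replicate 3 of siKLF5 and -0.51 without replicate 2.

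SEC62 (ENSG00000008952, chromosome 3, 169966635 to 169998373, plus strand, GRCh38) encodes a subunit of the SEC62-SEC63 complex, which helps the SEC61 channel import finished proteins into the ER; it also serves as a receptor for autophagy of the ER. With R1881 SEC62 had 136.8, 118.1 and 123.3 CPM in siKLF5 libraries and 205.3, 219.7 and 216.4 CPM in siNFYA libraries, against 214.4, 203.0 and 206.2 CPM in control libraries. With vehicle SEC62 had 87.8 and 95.5 CPM in siKLF5 libraries and 140.5, 132.6 and 139.9 CPM in siNFYA libraries, against 150.8, 145.5 and 155.0 CPM in control libraries. The siKLF5 libraries were apart from all others of their treatment, and the siNFYA libraries overlapped the control libraries with R1881 and lay just under them with vehicle. The log2 change of SEC62 under siKLF5 was -0.71 (SE 0.0537) with R1881 and -0.72 (SE 0.0601) with vehicle, the lowest of the 7 in either treatment. Without replicate 3 of siKLF5 with vehicle it was -0.79, and without replicate 2 it was -0.67.

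Under siNFYA, SEC62 gave 0.04 with R1881 (edgeR adjusted p = 0.663) and -0.13 with vehicle (adjusted p = 0.0649), the second of which was called with DESeq2 size factors (-0.14, adjusted p = 0.0371) and with library totals (-0.14, adjusted p = 0.0434). R1881 raised SEC62 against vehicle by 0.63 log2 in siNFYA libraries (SE 0.0451, adjusted p = 6.12e-12) and by 0.46 in control libraries (SE 0.0430, adjusted p = 8.86e-10), higher in all 3 R1881 libraries each time. The control libraries of these contrasts also entered the choice of the gene.

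The 300 bases around the start of SEC62, from 250 before to 50 after it, are shown as RefSeq gives them for GRCh38.p14 (chr3:169966557-169966856, plus strand), because KLF proteins are known for binding GC boxes; capitals mark GC boxes (GGGCGG or its reverse complement CCGCCC), of which this window holds 2.
SEC62: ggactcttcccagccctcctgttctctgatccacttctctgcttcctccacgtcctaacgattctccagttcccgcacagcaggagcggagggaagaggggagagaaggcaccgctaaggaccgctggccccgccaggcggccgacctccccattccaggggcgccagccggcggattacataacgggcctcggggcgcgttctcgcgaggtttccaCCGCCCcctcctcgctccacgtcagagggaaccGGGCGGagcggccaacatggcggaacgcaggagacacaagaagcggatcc

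HERPUD2 (ENSG00000122557, chromosome 7, 35632659 to 35695571, minus strand) encodes an ER membrane protein with a ubiquitin-like domain, the close relative of HERPUD1, which takes part in ER-associated degradation. It was the member with the fewest counts beside AQP3, 74 to 177 per library. With R1881 HERPUD2 had 17.6, 15.4 and 17.3 CPM in siKLF5 libraries and 27.0, 25.2 and 25.1 CPM in siNFYA libraries, against 24.0, 28.3 and 22.0 CPM in control libraries. With vehicle HERPUD2 had 13.3 and 16.0 CPM in siKLF5 libraries and 18.8, 20.9 and 21.7 CPM in siNFYA libraries, against 23.8, 25.3 and 20.6 CPM in control libraries. In CPM the siKLF5 libraries were again below all others of their treatment, and siNFYA and control libraries overlapped. For HERPUD2 the log2 change under siKLF5 was -0.56 (SE 0.126) with R1881 and -0.67 (SE 0.128) with vehicle. The vehicle value was -0.82 without replicate 3 of siKLF5 and -0.55 without replicate 2. On the TPM scale the changes were -0.27 with R1881 and -0.37 with vehicle. In TPM the siKLF5 and control libraries overlapped with R1881 (20.8 to 23.6 against 23.3 to 36.7 TPM). Neither siNFYA contrast was called (0.06, edgeR adjusted p = 0.831 with R1881, and -0.19, adjusted p = 0.296 with vehicle).

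HERPUD2 rose with R1881 in siNFYA libraries by 0.33 log2 (SE 0.114, edgeR adjusted p = 0.0136), higher in all 3 libraries. This call was lost with library totals (0.11, adjusted p = 0.405), on the TPM scale (0.14, adjusted p = 0.478) and without replicate 1 of siNFYA with vehicle (0.28, adjusted p = 0.0651). In control libraries the change was 0.09 (adjusted p = 0.491), and its sign turned to -0.15 with library totals.

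SYT4 (ENSG00000132872, chromosome 18, 43267878 to 43277650, minus strand) encodes an unconventional synaptotagmin, a vesicle membrane protein known in neurons and endocrine cells for its part in dense-core vesicle release. With R1881 SYT4 had 1399, 1381 and 1422 CPM in siKLF5 libraries and 1575, 1645 and 1609 CPM in siNFYA libraries, against 1731, 1760.1 and 1759 CPM in control libraries. With vehicle SYT4 had 1097 and 1064 CPM in siKLF5 libraries and 1186, 1264 and 1249.5 CPM in siNFYA libraries, against 1373, 1393 and 1359 CPM in control libraries. The groups did not overlap in either treatment, and siNFYA lay between siKLF5 and control. For SYT4 the log2 change under siKLF5 was -0.31 (SE 0.0288) with R1881 and -0.35 (SE 0.0323) with vehicle, and the vehicle value was -0.34 without replicate 3 of siKLF5 and -0.38 without replicate 2.

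SYT4 was 1 of 2 members called lower under siNFYA in each treatment, by 0.12 log2 with R1881 (edgeR adjusted p = 0.0343) and by 0.16 with vehicle (adjusted p = 0.0032). The first call was lost when the compared groups were fitted alone (-0.10, adjusted p = 0.0537) on the TPM scale (-0.14, adjusted p = 0.0594), and without 5 of the 6 libraries in turn (edgeR adjusted p up to 0.109); it held without replicate 2 of siNFYA with R1881. R1881 raised SYT4 by 0.38 in siNFYA libraries (SE 0.0339, adjusted p = 4.29e-10) and by 0.35 in control libraries (SE 0.0337, adjusted p = 2.20e-09), with no overlap between treatments.

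BRI3BP (ENSG00000184992, chromosome 12, 124993700 to 125031231, plus strand) encodes the BRI3-binding protein, a multi-pass membrane protein. Its pseudogene BRI3BPP1 was at 0 counts in every library. With R1881 BRI3BP had 50.8, 50.1 and 51.5 CPM in siKLF5 libraries and 66.0, 76.3 and 71.2 CPM in siNFYA libraries, against 74.9, 72.0 and 72.2 CPM in control libraries. With vehicle BRI3BP had 74.0 and 70.7 CPM in siKLF5 libraries and 98.6, 105.9 and 110.5 CPM in siNFYA libraries, against 100.2, 100.5 and 96.8 CPM in control libraries. The siKLF5 libraries were the lowest in both treatments, and siNFYA and control overlapped. The BRI3BP log2 change under siKLF5 was -0.52 (SE 0.0622) with R1881 and -0.46 (SE 0.0556) with vehicle, the second being -0.43 without replicate 3 of siKLF5 and -0.50 without replicate 2. Neither siNFYA contrast was called (-0.03, edgeR adjusted p = 0.833 with R1881, and 0.08, adjusted p = 0.375 with vehicle).

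BRI3BP was the member that fell with R1881. It fell by 0.56 log2 in siNFYA libraries (SE 0.0606, edgeR adjusted p = 1.43e-08) and by 0.45 in control libraries (SE 0.0585, adjusted p = 3.62e-07), lower in all 3 R1881 libraries each time. In siKLF5 libraries, described only, it was -0.51. Its binding partner BRI3 had 82.9, 82.3 and 83.9 CPM in siKLF5 libraries with R1881, against 84.2, 86.6 and 85.9 CPM in control libraries (log2 change -0.03, edgeR adjusted p = 0.890). With vehicle BRI3 had 80.4 and 65.4 CPM in siKLF5 libraries, against 74.5, 77.5 and 77.2 CPM in control libraries (-0.07, adjusted p = 0.738).

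TNFRSF19 (ENSG00000127863, chromosome 13, 23570370 to 23676104, plus strand), also called TROY, encodes a TNF receptor superfamily member without a death domain. With R1881 TNFRSF19 had 194.9, 199.0 and 190.0 CPM in siKLF5 libraries and 186.1, 198.2 and 192.9 CPM in siNFYA libraries, against 225.1, 229.3 and 222.9 CPM in control libraries. With vehicle TNFRSF19 had 50.6 and 50.9 CPM in siKLF5 libraries and 50.8, 61.7 and 59.5 CPM in siNFYA libraries, against 79.7, 71.5 and 65.2 CPM in control libraries. Here siKLF5 and siNFYA libraries overlapped each other and lay below all control libraries in both treatments. For TNFRSF19 the log2 change under siKLF5 was -0.20 (SE 0.0493) with R1881 and -0.51 (SE 0.0726) with vehicle. The vehicle value was -0.52 without replicate 3 of siKLF5, -0.51 without replicate 2 and -0.30 on the TPM scale.

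TNFRSF19 fell under siNFYA by 0.23 log2 with R1881 (SE 0.0531, edgeR adjusted p = 0.0094) and by 0.33 with vehicle (SE 0.0739, adjusted p = 0.00405), in 3 of 3 libraries each time. On the TPM scale the calls were lost (-0.26, limma adjusted p = 0.379 with R1881, and -0.37, adjusted p = 0.16 with vehicle). R1881 raised it the most of the 7 in siNFYA libraries, by 1.74 (SE 0.0658, adjusted p = 1.36e-17), and by 1.64 in control libraries (SE 0.0588, adjusted p = 4.03e-18). In siKLF5 libraries, described only, R1881 against vehicle was 1.94.

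TNFRSF19 has 2 annotated start regions, shown as RefSeq sequence of GRCh38.p14 on the plus strand because transcripts from them were counted separately. The upstream window (chr13:23570162-23570461) holds no GC box and 1 CACCC box, and the downstream window (chr13:23579110-23579409) holds 5 GC boxes and 2 CACCC boxes, with 1 base shared by the motifs. Capitals mark GC boxes (GGGCGG or CCGCCC) and CACCC boxes (CACCC or its reverse complement GGGTG).
TNFRSF19 upstream: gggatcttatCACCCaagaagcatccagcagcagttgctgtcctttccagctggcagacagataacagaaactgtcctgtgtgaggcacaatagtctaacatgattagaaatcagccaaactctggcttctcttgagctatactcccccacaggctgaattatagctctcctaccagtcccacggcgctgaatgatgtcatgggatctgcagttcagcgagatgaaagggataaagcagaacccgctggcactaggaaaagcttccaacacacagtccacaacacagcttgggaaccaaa
TNFRSF19 downstream: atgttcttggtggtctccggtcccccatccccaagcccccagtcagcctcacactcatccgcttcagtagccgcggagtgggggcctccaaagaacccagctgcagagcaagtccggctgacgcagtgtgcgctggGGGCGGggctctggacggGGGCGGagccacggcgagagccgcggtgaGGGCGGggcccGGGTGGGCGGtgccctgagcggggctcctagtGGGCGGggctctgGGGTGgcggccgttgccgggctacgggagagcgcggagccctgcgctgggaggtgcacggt
Transcripts of the downstream start held 97.0% ± 1.72 (SD, n = 3) of the gene's counts in siKLF5 libraries with R1881, 97.9% ± 0.414 in siNFYA libraries with R1881 (n = 3) and 97.2% ± 0.800 in control libraries with R1881 (n = 3). With vehicle they held 92.9% ± 5.54 in siKLF5 libraries (n = 2), 93.2% ± 6.42 in siNFYA libraries (n = 3) and 95.0% ± 3.84 in control libraries (n = 3). The upstream start had at most 46.8 estimated counts in any library, and its use was not tested.

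AQP3 (ENSG00000165272, chromosome 9, 33441154 to 33447633, minus strand) encodes an aquaglyceroporin, a channel for water and glycerol in the basolateral membrane of epithelia. It had 83 to 147 counts per library. With R1881 AQP3 had 22.3, 23.8 and 19.4 CPM in siKLF5 libraries and 24.5, 25.0 and 24.2 CPM in siNFYA libraries, against 24.9, 20.8 and 23.9 CPM in control libraries. With vehicle AQP3 had 13.8 and 14.6 CPM in siKLF5 libraries and 19.0, 17.3 and 18.1 CPM in siNFYA libraries, against 19.9, 18.9 and 21.8 CPM in control libraries. The siKLF5 libraries stood apart with vehicle and overlapped control with R1881. The AQP3 log2 change under siKLF5 was -0.07 (SE 0.109) with R1881, between -0.14 and 0.00139 when each library was left out, and -0.51 (SE 0.120) with vehicle. The vehicle value was -0.55 without replicate 3 of siKLF5 and -0.48 without replicate 2.

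Neither siNFYA contrast of AQP3 was called (0.09, edgeR adjusted p = 0.708 with R1881, and -0.15, adjusted p = 0.381 with vehicle). AQP3 rose with R1881 in siNFYA libraries by 0.44 log2 (SE 0.105, edgeR adjusted p = 0.000855), higher in all 3, and the call was lost with library totals (0.21, adjusted p = 0.0763) and on the TPM scale (0.23, limma adjusted p = 0.0763). In control libraries the change was 0.20 (SE 0.0995, adjusted p = 0.0887), and -0.040 with library totals. It was called without replicate 2 of control siRNA with R1881 (0.27, adjusted p = 0.0330). In siKLF5 libraries, described only, R1881 against vehicle was 0.63.

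The AQP3 start window (chr9:33447544-33447843, minus strand, RefSeq, GRCh38.p14) was the richest of the members in these motifs, with 5 GC boxes and 3 CACCC boxes, and is shown for that reason. Capitals mark GC boxes (GGGCGG or CCGCCC) and CACCC boxes (CACCC or GGGTG).
AQP3: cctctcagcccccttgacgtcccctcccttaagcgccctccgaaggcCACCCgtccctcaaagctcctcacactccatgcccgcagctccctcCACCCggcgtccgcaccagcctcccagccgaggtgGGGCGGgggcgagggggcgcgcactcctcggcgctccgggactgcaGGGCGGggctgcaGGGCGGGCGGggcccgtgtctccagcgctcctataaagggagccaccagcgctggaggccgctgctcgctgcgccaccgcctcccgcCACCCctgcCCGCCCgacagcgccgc

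FXYD3 (ENSG00000089356, chromosome 19, 35115879 to 35124324, plus strand), also called Mat-8, encodes a small single-span protein that associates with and modulates the Na,K-ATPase. Its annotation shares bases with another protein-coding gene on the same strand, AC020907.6, which was not analysed here, so FXYD3 counts are uncertain where reads could be split. With R1881 FXYD3 had 56.9, 57.4 and 58.7 CPM in siKLF5 libraries and 68.5, 73.5 and 74.8 CPM in siNFYA libraries, against 82.0, 84.2 and 80.1 CPM in control libraries. With vehicle FXYD3 had 19.0 and 16.7 CPM in siKLF5 libraries and 22.7, 24.3 and 23.2 CPM in siNFYA libraries, against 22.5, 26.5 and 27.1 CPM in control libraries. In CPM the groups were stepwise and apart with R1881, and with vehicle siNFYA overlapped control while siKLF5 lay below. In TPM siKLF5 overlapped control with vehicle (50.2 to 67.4 against 65.0 to 80.8 TPM). For FXYD3 the log2 change under siKLF5 was -0.50 (SE 0.0679) with R1881 and -0.51 (SE 0.104) with vehicle. The vehicle value was -0.42 without replicate 3 of siKLF5 and -0.62 without replicate 2. On the TPM scale the changes were -0.56 with R1881 and -0.36 with vehicle.

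FXYD3 under siNFYA gave -0.19 with R1881 (SE 0.0635, edgeR adjusted p = 0.0879), lower in 3 of 3 libraries without passing the threshold, and -0.11 with vehicle (adjusted p = 0.492). R1881 raised FXYD3 by 1.62 log2 in siNFYA libraries (SE 0.0801, adjusted p = 3.77e-15) and by 1.69 in control libraries (SE 0.0727, adjusted p = 1.88e-16). In siKLF5 libraries, described only, R1881 against vehicle was 1.69.

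**Figure D2:**
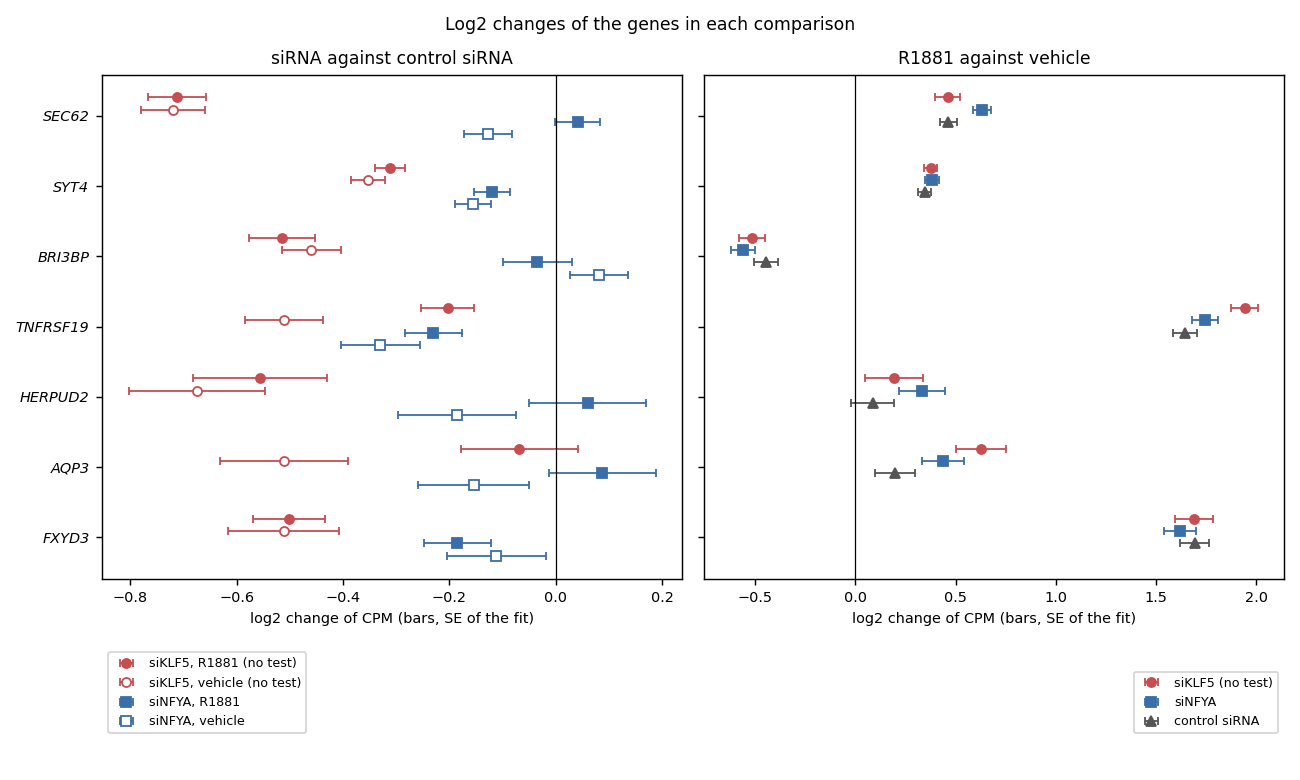
Log2 changes of the 7 genes in each contrast with standard errors as bars; siKLF5 contrasts chose the genes and are shown as a description. SEC62 lies at -0.71 and -0.72 under siKLF5 and at 0.04 and -0.13 under siNFYA (R1881 and vehicle), and TNFRSF19 and FXYD3 lie between 1.62 and 1.94 with R1881 in the 3 siRNA groups.

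Counted over the 7 members, siNFYA against control called 2 lower with R1881 (SYT4 and TNFRSF19), where edgeR called 5.96% of all genes and 3.33% lower. With vehicle it called the same 2 lower, where 13.5% of all genes were called and 6.79% lower. All siNFYA libraries lay below all control libraries for 3 members in each treatment, as did 13.8% of all genes with R1881 and 15.5% with vehicle. The siNFYA contrasts share their control libraries with the siKLF5 contrasts that chose the members. R1881 against vehicle called 6 members higher and 1 lower in siNFYA libraries, where 62.1% of all genes were called, 31.2% higher and 31% lower. In control libraries it called 4 higher and 1 lower, where 62.9% of all genes were called, 32.1% higher and 30.8% lower. In siKLF5 libraries, all R1881 libraries lay above all vehicle libraries for 5 members and below for 1, against 34.9% and 34.5% of all genes.

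The scaling matters for the R1881 contrasts. With library totals in place of TMM the median log2 change of all genes moved to -0.24 in siNFYA libraries, -0.25 in control libraries and -0.24 in siKLF5 libraries, against -0.02, -0.01 and -0.01 with TMM. The share of calls that were higher moved to 28.1%, 28.2% and 28%, against 50.2%, 51.1% and 51.9%. With library totals 4 members were called higher and 1 lower in both siNFYA and control libraries. SEC62, SYT4, TNFRSF19 and FXYD3 rose and BRI3BP fell under every scaling tried in both.

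Whether the response to R1881 differed between siNFYA and control cells was tested with an interaction term. It was called for 0 of the 7 members by edgeR, DESeq2 and limma, where 0.722% of all genes were called by edgeR, and 1 member had an unadjusted p under 0.05. That member was SEC62, whose response was larger by 0.17 log2 in siNFYA cells (approximate 95% interval 0.05 to 0.29, edgeR adjusted p = 0.240). For HERPUD2 the interval was -0.06 to 0.55, for AQP3 -0.04 to 0.53 and for TNFRSF19 -0.08 to 0.28. For SYT4 it was -0.06 to 0.13, for BRI3BP -0.28 to 0.05 and for FXYD3 -0.29 to 0.15. The intervals are widest for the thinly counted HERPUD2 and AQP3.

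Among the 8 start windows of the members, GC boxes numbered 2 in SEC62, 2 in BRI3BP, 1 in HERPUD2, 5 in AQP3 and 5 in the downstream window of TNFRSF19, with none in SYT4, FXYD3 and the upstream window of TNFRSF19. The FXYD3 window surrounds the start of ENST00000603524, which held 0.192% of the gene's counts, and holds the start of neither main FXYD3 transcript (chromosome 19, 35115879 and 35118530). The main BRI3BP transcript starts just past the end of its window. CACCC boxes numbered 3 in AQP3, 3 in FXYD3, 2 and 1 in the windows of TNFRSF19 and none in the others. The CCAAT box bound by NF-Y (CCAAT or ATTGG) was in none of the 8 windows. Of 35093 RefSeq windows of this length, 44.9% held a GC box, 59.9% a CACCC box and 34.6% a CCAAT box, counted on both strands. At least 3 GC boxes were in 15.8% and at least 3 CACCC boxes in 11.2%. These are matches of letters, and binding was not measured.

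Transcript values asked whether single isoforms carry the gene-level differences. Of the 50 member transcripts 31 reached a mean of 1 TPM in some group and 20 could be tested. SEC62 was carried by 2 isoforms annotated with proteins of 399 residues each, ENST00000337002 (6568 nt, 63.4% of the gene's counts) and ENST00000480708 (1430 nt, 35.8%). With R1881, ENST00000337002 had 17.4, 16.6 and 18.0 TPM in siKLF5 libraries, against 30.7, 28.8 and 28.1 TPM in control libraries, and with vehicle 14.9 and 14.9 TPM, against 23.8, 23.2 and 24.4 TPM in control libraries. With R1881, ENST00000480708 had 59.4, 44.7 and 45.7 TPM in siKLF5 libraries, against 84.2, 81.5 and 85.7 TPM in control libraries, and with vehicle 36.8 and 44.9 TPM, against 69.4, 65.2 and 71.4 TPM in control libraries. Both were lower in all siKLF5 libraries, with log2 changes of -0.73 and -0.72 with R1881 and -0.71 and -0.78 with vehicle.

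**Figure D3:**
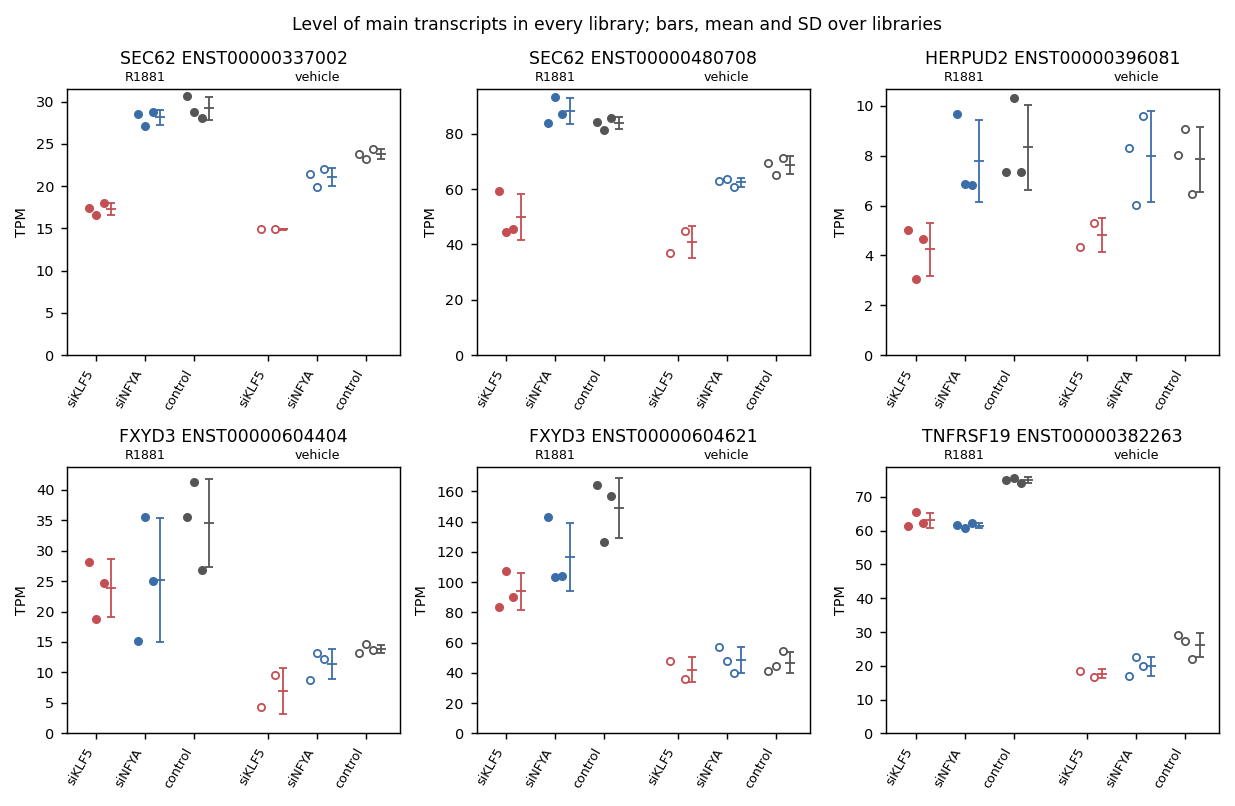
TPM of the main member transcripts in each library by siRNA and treatment group; points are libraries and bars are group means. Both SEC62 transcripts lie below all control libraries in the siKLF5 libraries, and the FXYD3 transcripts spread more widely within groups.

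FXYD3 was split between ENST00000604404 (1322 nt, 32.8% of counts) and ENST00000604621 (548 nt, 43.1%), each annotated with a protein of 87 residues. The siKLF5 log2 change was -0.51 (SE 0.282) and -0.65 (SE 0.182) with R1881 and -1.02 (SE 0.335) and -0.16 (SE 0.210) with vehicle, in the order named. With vehicle ENST00000604404 had 4.32 and 9.59 TPM in siKLF5 libraries, against 13.3, 14.6 and 13.7 TPM in control libraries, while ENST00000604621 had 48.0 and 36.2 TPM in siKLF5 libraries, against 41.4, 44.4 and 54.4 TPM in control libraries. The first was apart from control, with its siKLF5 libraries far from each other, and the second overlapped. Both transcripts rose with R1881 in siNFYA libraries, by 1.28 (edgeR adjusted p = 0.0150) and 1.37 (adjusted p = 0.00057), and in control libraries by 1.42 (adjusted p = 0.00807) and 1.78 (adjusted p = 8.80e-05).

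SYT4, AQP3, TNFRSF19 and BRI3BP leaned on 1 transcript each. ENST00000255224 held 99.5% of SYT4 counts, ENST00000297991 99.2% of AQP3 counts, ENST00000382263 92.2% of TNFRSF19 counts and ENST00000341446 all BRI3BP counts. HERPUD2 was split, with ENST00000396081 at 63.4% of counts, ENST00000311350 at 16.4% and ENST00000603731 at 13.8%. The siKLF5 log2 change of ENST00000396081 was -0.95 (SE 0.251) with R1881 and -0.74 (SE 0.282) with vehicle. With R1881 it had 5.04, 3.04 and 4.67 TPM in siKLF5 libraries, against 7.36, 10.3 and 7.36 TPM in control libraries. With vehicle it had 4.35 and 5.31 TPM in siKLF5 libraries, against 8.01, 9.07 and 6.48 TPM in control libraries, again without overlap. ENST00000603731 changed by -0.29 (SE 0.416) with R1881 and -0.20 (SE 0.459) with vehicle. Its siKLF5 and control libraries overlapped with R1881 (9.40 to 12.6 against 8.46 to 17.9 TPM) and with vehicle (14.2 to 17.1 against 15.2 to 21.1 TPM). ENST00000311350 gave 0.17 (SE 1.00) with R1881 and -1.06 (SE 1.14) with vehicle.

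At transcript level R1881 against vehicle called 10 of the 20 in siNFYA libraries, 9 higher and 1 lower in 6 genes, where 16.9% of all transcripts were called. In control libraries it called 8, 7 higher and 1 lower in 5 genes, where 16.3% were called. The siNFYA contrast with vehicle called 1, the main SYT4 transcript ENST00000255224 (-0.17, edgeR adjusted p = 0.0332), where 0.454% were called, and that call was lost in each fit that left out a library. With R1881 the siNFYA contrast called 0 of 20 by edgeR, where 0.572% were called and 2 had an unadjusted p under 0.05; SYT4 ENST00000255224 gave -0.14 (adjusted p = 0.0612).

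Genes that work with the members were taken from 7 lists: ER translocation, ER-associated degradation, synaptotagmins, the TNF receptor superfamily, aquaporins, FXYD proteins with Na,K-ATPase subunits, and the KLF family. Under siKLF5 with R1881, edgeR called 5 of the 84 list genes tested, all lower. Over all 12733 genes fitted it called 176, of which 70 were lower (0.55%). Of the 84 list genes, 19 had an unadjusted p under 0.05. The 5 called included the ER-shaping reticulon RTN4 (-0.22, adjusted p = 0.00363) and the ER chaperone HSPA5 (-0.15, adjusted p = 0.0123) of the 22 ER translocation genes. They also included the mannose-trimming factor EDEM3 (-0.23, adjusted p = 0.00275) of the 22 ER-associated degradation genes, and KLF5, the target of the siRNA. The median of the ER translocation list was -0.11 and that of all genes 0.000236. HSPA5 lost its call without 3 of the 6 libraries in turn (edgeR adjusted p up to 0.0981).

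With vehicle edgeR called 1 of the 84 list genes under siKLF5, against 168 of all 12733 genes fitted, 98 of them higher. It was the ubiquitin ligase SYVN1, which rose by 0.27 (adjusted p = 0.0488). Of the 84 list genes, 13 had an unadjusted p under 0.05, and DESeq2 and limma called 0. The SYVN1 call was lost when any 1 of the 5 libraries was left out (adjusted p up to 0.18). The lists' medians lay between -0.10 and 0.14, against -0.01 over all genes. The ER translocation and ER-associated degradation lists had medians of -0.03 each, beside -0.72 for SEC62 and -0.67 for HERPUD2, which were chosen for that size.

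Under siNFYA edgeR called 3 of 83 list genes higher and 4 lower in each treatment, where 5.96% of all genes were called with R1881 and 13.5% with vehicle. DESeq2 called 5 of the 83 with R1881 and 4 with vehicle, and limma on log2(TPM + 0.5) called 2 and 4. With R1881 they included UBE2G2, SYTL1 and TNFRSF10B higher (0.36, 0.37 and 0.25) and SYT7, ATP1B1 and KLF13 lower (-0.27, -0.20 and -0.31). With vehicle they were SYTL1, AUP1 and TNFRSF10B higher (0.61, 0.22 and 0.19) and HSPA5, SPCS2, UBQLN2 and TNFRSF10D lower (-0.14, -0.13, -0.23 and -0.20). The calls of SYTL1 and KLF13 with R1881 and of SPCS2 and AUP1 with vehicle were each lost in at least 4 of the 6 fits that left out a library. The call of SYT7 with R1881 was lost in 3 of 6 (adjusted p up to 0.0647) and that of TNFRSF10B with vehicle in 2 of 6 (adjusted p up to 0.0662). By limma on the TPM scale, UBE2G2, SYTL1, TNFRSF10B, SYT7 and KLF13 with R1881 and AUP1, SPCS2, UBQLN2 and TNFRSF10D with vehicle lost their calls. DESeq2 did not call SYTL1, SYT7 and KLF13 with R1881, nor AUP1, SPCS2 and TNFRSF10D with vehicle.

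Most genes of both ER lists were called higher with R1881, beside 31.2% of all genes in siNFYA libraries and 32.1% in control libraries. In siNFYA libraries 17 of 22 ER translocation genes were called higher and 2 lower, with a median of 1.10 against -0.02 over all genes, and in control libraries 18 higher and 1 lower, with a median of 1.14 against -0.01. The co-chaperone DNAJB9 rose by 3.02 in siNFYA and 3.22 in control libraries, the translocon-associated subunit SSR3 by 1.87 and 1.93, and the signal peptidase subunit SEC11C by 1.76 and 1.76. Of 22 ER-associated degradation genes 18 were called higher and 2 lower in siNFYA libraries, and 17 higher and 2 lower in control libraries, with medians of 0.68 and 0.66. HERPUD1, the relative of HERPUD2, rose by 2.15 in siNFYA and 2.24 in control libraries, and the ubiquitin-conjugating enzyme UBE2J1 by 2.53 and 2.34. With library totals 16 ER translocation genes were higher and 2 lower in siNFYA libraries and 16 higher and 3 lower in control libraries.

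Relatives of the other members were called in both directions with R1881, as were all genes (31.2% higher and 31% lower in siNFYA libraries, 32.1% higher and 30.8% lower in control libraries). In siNFYA libraries 4 of 13 TNF receptor superfamily genes were called higher and 6 lower, with TNFRSF10B at 1.76 and FAS at -1.54, and the same counts held in control libraries. Of 9 synaptotagmin-family genes 1 was higher and 5 lower in siNFYA libraries, and 2 higher and 2 lower in control libraries, with SYTL2 at -4.07 and -3.19. With library totals the synaptotagmin-family counts were 1 higher and 6 lower in siNFYA libraries and 1 higher and 4 lower in control libraries. The Na,K-ATPase subunit ATP1B1 fell by 1.01 in siNFYA and 0.91 in control libraries. Of 13 KLF genes 5 were higher and 4 lower in siNFYA libraries and 6 higher and 4 lower in control libraries, and KLF5 itself rose by 2.67 and 2.76. With library totals, TNF receptor superfamily genes were 3 higher and 6 lower in siNFYA libraries and 4 higher and 6 lower in control libraries, and the KLF family counts were 4 higher and 5 lower in siNFYA libraries and 5 and 5 in control libraries.

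Genes whose pattern was like that of a member were ranked by Pearson's r over the 17 libraries after each treatment's mean was taken off, among 10608 genes. Among the 2 highest for their member, the threonyl-tRNA synthetase TARS had r = 0.90 with SEC62 and 0.90 with BRI3BP, the zinc finger protein ZNF148 0.92 with SYT4, the claudin CLDN8 0.87 with HERPUD2 and the lipid phosphatase PLPP1 0.88 with FXYD3. With TNFRSF19, monoamine oxidase MAOA had 0.90 and the actin-binding protein WDR1 0.88. With AQP3, the transcriptional coactivator subunit ENY2 had 0.81 and the mitochondrial peptidase MIPEP 0.80, the lowest values of the 7 members. TARS averaged 607 CPM in siKLF5 libraries with R1881, 711 CPM in siNFYA libraries and 757 CPM in control libraries, and with vehicle 305 CPM in siKLF5 libraries, 371 CPM in siNFYA libraries and 366 CPM in control libraries. It was thus lower under siKLF5 in both treatments, like the members.

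These r values share libraries and the contrast that chose the members, and are a description. In the 12 libraries without siKLF5, an alternative chosen after seeing the data, r with TARS was 0.05 for SEC62 and 0.48 for BRI3BP, and r was 0.70 for SYT4 with ZNF148, 0.64 for HERPUD2 with CLDN8 and 0.29 for FXYD3 with PLPP1. For TNFRSF19 it was 0.85 with MAOA and 0.87 with WDR1, and for AQP3 0.45 with ENY2 and 0.50 with MIPEP. The high r of SEC62 with TARS and of FXYD3 with PLPP1 therefore rested on the siKLF5 libraries, whereas both r of TNFRSF19 held without them. Between the members themselves the 21 pairs had r of 0.51 to 0.94 with a median of 0.80 over the 17 libraries.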

How the data were processed

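Per the submitters' processing notes, reads were checked with FastQC, trimmed with Trimmomatic, quantified with kallisto against GRCh38 and tested with DESeq2 (versions and strand setting: not given in the sources used here). A directional kit was used for the libraries, per the labels' protocols. The authors deposited estimated counts per gene and transcript, and TPM values, in 2 tables (siKLF5 with control, siNFYA with control) that share the same 6 control libraries. A further number per feature without a name was not used. Replicate 1 of siKLF5 with vehicle was not analysed here.

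Estimated counts were rounded to whole numbers and fitted per table with edgeR 4.0.16 in R 4.3.3 (quasi-likelihood test, TMM scaling, filterByExpr, group means), on 12733 genes for siKLF5 and 12601 for siNFYA contrasts, with Benjamini-Hochberg adjustment over all of them and a threshold of 0.05. Transcripts were fitted likewise. CPM in the text used TMM over all 17 libraries. Alternatives were DESeq2 1.42.0, its size factors, library totals, no filter, the compared groups alone, all libraries in 1 fit, limma 3.58.1 on log2(TPM + 0.5) or log2(TPM + 0.1), and each library left out. The fits were tested on simulated counts.

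The 7 members, the lists and the tests were chosen with earlier results of these data known. List genes named are at most the 4 largest called changes per list with a group mean of 5 CPM, and like genes those of the 2 highest r per member; a few genes that these rules name are not reported here. Labels do not say whether replicates came from separate cultures, so p-values measure the spread between these samples, which may be technical. Replicates differed by more than counting error (chi-square per degree of freedom 1.33 to 3.32 over pairs of replicates, except 9.35 and 12.4 for replicate 3 of siNFYA with vehicle). Gene positions and overlaps are from GENCODE release 29. SEC62, BRI3BP and HERPUD2 have antisense partners that were not analysed here, and without the strand setting reads of each gene and its partner cannot be told apart. Protein sequences were not used here.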

Additional observations from a re-analysis of the deposited data

How the results depend on the processing

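No paired analysis was possible because the titles give each library its own sample number and do not say which libraries of different groups belong together. With library totals, limma on log2(TPM + 0.5) and limma on log2(TPM + 0.1), in that order, R1881 against vehicle under siKLF5 turned to -0.039, -0.063 and -0.064 for HERPUD2 and to -0.036, -0.031 and -0.032 for SYT7, and in control libraries to -0.15, -0.16 and -0.16 for HERPUD2; AQP3 in control libraries turned to -0.040 with library totals. Small values also changed sign when a library was left out: HERPUD2 with R1881 in control libraries (-0.018 without control R1881 replicate 2; range -0.018 to 0.17), HERPUD2 under siNFYA with R1881 (-0.018 without control R1881 replicate 3; range -0.018 to 0.17), BRI3BP under siNFYA with R1881 (0.018 without siNFYA R1881 replicate 1; range -0.091 to 0.018) and the FXYD3 interaction (0.0055 without control vehicle replicate 1; range -0.12 to 0.0055). Under siNFYA, members called with vehicle were 1 by limma with either pseudocount (2 by edgeR). With R1881 they were 1 with the compared groups alone, 0 by limma with either pseudocount, and 1 to 2 without each library (2 by edgeR). Member transcripts called under siNFYA were 0 without each library with vehicle (1 by edgeR), and 1 without the filter with R1881 (0 by edgeR). The members' median under siKLF5 was -0.37 and -0.38 by limma (+ 0.5 and + 0.1) with vehicle and -0.52 to -0.48 without each library, and with R1881 -0.32 and -0.32 by limma and -0.52 to -0.45 without each library. Their median for R1881 against vehicle under siKLF5 was 0.23 with library totals and 0.28 and 0.28 by limma. The cause was not tested. R1881 calls among members were 6 to 7 in siNFYA and 5 to 6 in control libraries without each library. Over all genes, siKLF5 with vehicle gave 168 calls by edgeR, 409 without the filter, 82 by DESeq2, 81 with the compared groups alone, 108 with all libraries in 1 fit, 2 and 2 by limma and 70 to 434 without each library. With R1881 it gave 176 by edgeR, 388 without the filter, 105 by DESeq2, 314 with the compared groups alone, 34 and 36 by limma and 71 to 108 without each library. siNFYA gave 751 by edgeR, 397 by DESeq2 and 201 and 200 by limma with R1881, and 1696, 956, 439 and 420 with vehicle, and 402 to 674 and 1065 to 1604 without each library; the interaction gave 91 by edgeR, 326 without the filter, 59 with all libraries in 1 fit, 1 and 1 by limma and 43 to 264 without each library. Of 1140 other single-gene comparisons with an alternative, 1042 kept direction and side of the threshold, as did 806 of 868 with a library left out. HERPUD2 and AQP3, with 74 to 177 and 83 to 147 counts, are limited by depth.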
